A study of Mus musculus with 9 samples.

Results

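The regions described here carried an XBP1 peak in liver 48 h after partial hepatectomy and in none of the other 4 unsilenced livers of the study. They were chosen from the peak lists themselves: overlapping peaks of the 5 unsilenced lists were merged wherever they shared at least 1 bp, and a merged region was kept if it held a peak of the 48 h hepatectomy list and no other. This gave 255 sites among 28099 merged regions. Each site is a single peak, so the 255 sites are 255 of the 7212 peaks called 48 h after hepatectomy. Presence and absence of peaks in the 5 lists chose the sites and are given as a description, with no test.

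XBP1 is a basic leucine zipper transcription factor of the unfolded protein response, the program that adjusts the protein-folding capacity of the endoplasmic reticulum. The endoplasmic reticulum sensor IRE1 splices its messenger RNA, and the spliced form encodes the active factor, which drives genes for chaperones, protein degradation and secretory traffic. The liver secretes most plasma proteins, and after partial hepatectomy its remaining cells re-enter the cell cycle while they keep up that secretion.

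Peak lists of 8 libraries of chromatin immunoprecipitation with an antibody to XBP1 were used, with 1 library per condition and all from wildtype C57Bl6-J mice. The livers were taken 48 h after partial hepatectomy, 6 h after partial hepatectomy, 48 h after a sham operation, 6 h after a sham operation and without an operation (basal). In the other 3 lists XBP1 had been silenced: a virus encoding a short hairpin RNA against it was injected into the tail vein 7 days earlier. These silenced lists stood for 48 h after hepatectomy, 6 h after hepatectomy and basal liver. Operated mice were 8 weeks old. In the sham operation the abdomen was opened and lobes were lifted without removal. Clodronate liposomes, which deplete macrophages, were given before the virus. Use of the control virus in unsilenced mice, and the number of animals behind each library, are not stated in the labels. There is no silenced sham liver.

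A single library per condition leaves no spread between animals to compare with, and no p-value was computed. The 95% intervals given with shares are exact (Clopper-Pearson) and cover counting error only. The lists held 7212 peaks 48 h after hepatectomy, 22071 peaks 6 h after hepatectomy, 4622 peaks 48 h after sham, 23087 peaks 6 h after sham and 2482 peaks in basal liver. The depth of the libraries is unknown, so a site missing from a list is a site where no peak was called and not a site shown to be free of XBP1. The lists hold coordinates of build mm9 and no gene names, and no mm9 genome or annotation was used here. Sites are therefore given by position without genes or sequence, and the labelled tissue could not be checked against marker genes.

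The 48 h hepatectomy liver had few sites of its own. The 255 sites made up 3.54% of its peaks, and they were 3.65% of the 6990 merged regions that held one of its peaks. Most of those regions were shared with the 6 h livers: 2593 regions (37.1%) had a peak in both 6 h lists only, 1859 regions (26.6%) had a peak in all 5 lists, and 1443 regions (20.6%) lacked only the basal peak. Another 325 regions (4.65%) were shared with the 6 h sham list alone and 165 regions (2.36%) with the 6 h hepatectomy list alone.

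The 6 h lists decided nearly the whole selection. Of the peaks 48 h after hepatectomy, 3818 (52.9%) had no peak 48 h after sham and 5025 (69.7%) had none in basal liver. By contrast, 646 peaks (8.96%) had no counterpart 6 h after hepatectomy and 449 peaks (6.23%) had none 6 h after sham. Leaving both 6 h lists aside, 3505 sites were found 48 h after hepatectomy and neither 48 h after sham nor in basal liver. Requiring absence from both 6 h lists alone already left 261 regions, and the basal and 48 h sham lists then removed only 6 more. The 6 h lists are also the longest, with the widest peaks.

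The sites were weak calls within their list. The score is the authors' own value per peak, read here as −log10 of the p-value from peak calling, although MACS 1.4 usually writes 10 times that value. The 255 sites had a median score of 9.35 (quartiles 8.30 and 11.53), and the other 6957 peaks of the same library had a median of 12.67 (quartiles 9.35 and 18.71). None of the 500 highest-scoring peaks was among the sites, and 5 of the 2000 highest-scoring peaks were. A score of at least 20 was reached by 3 of the 255 sites (1.18%, 95% interval 0.243 to 3.40%), and by 1443 of all 7212 peaks (20.0%).

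The share of peaks without a counterpart was lower in the higher bands of score. It was 57 of 664 peaks (8.58%, 6.57 to 11.0%) at scores from 5 to below 8, and 84 of 1388 peaks (6.05%, 4.86 to 7.44%) from 8 to below 10. Between 10 and 12 it was 69 of 1440 peaks (4.79%), and between 12 and 14 it was 28 of 974 peaks (2.87%). At scores of 30 and above, 2 of 758 peaks (0.264%, 0.0320 to 0.950%) had no counterpart. Since absence from the other lists is the rule, this gradient describes where the sites sit in their list.

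**Figure D1:**
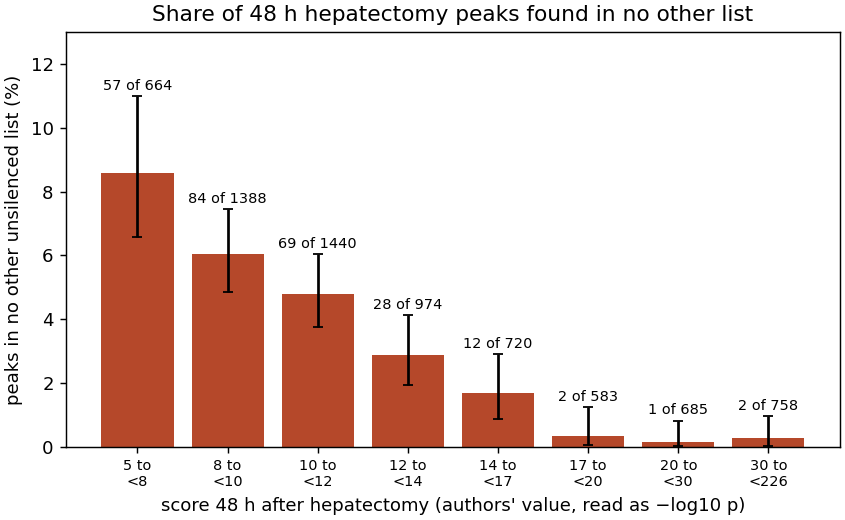
Share of peaks 48 h after hepatectomy that overlapped no peak of the other 4 unsilenced lists (vertical axis, percent), by band of peak score (horizontal axis, read as −log10 p). Bars are shares of the peaks in a band, error bars are exact 95% intervals for counting error, and the share is 8.58% in the lowest band and 0.264% in the highest.

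Many scores of this list fall on a ladder of fixed values. For a single background mean of 1.177, 70.3% of all 7212 scores lay within 0.0055 of −log10 of a Poisson tail probability, against 22.6% for the next best mean. Taken as 10 times −log10 p, at most 13.3% of the scores fell on such steps for any mean tried. Read this way, one step up the ladder stands for 1 more fragment counted at the peak. Of the sites, 177 (69.4%, 63.4 to 75.0%) were on the ladder, and 4892 of the other peaks (70.3%, 69.2 to 71.4%). The median site on the ladder stood at step 12, a score of 9.35, and the median of the other peaks on the ladder stood at step 15, a score of 12.67. On this reading the median site had 3 fragments fewer than the median of the other peaks called against the same background.

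The share of sites among peaks on the ladder was higher at its lower end. It was 9 of 73 peaks (12.3%) at a score of 6.31, 39 of 472 peaks (8.26%) at 8.30, 29 of 567 peaks (5.11%) at 10.42 and 9 of 394 peaks (2.28%) at 12.67. Above a score of 16.22 only 1 site was on the ladder, at 27.99.

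The sites were also narrower than other peaks of the same library. Their median width was 216 bp (quartiles 190 and 248 bp), and the median of the other peaks was 295 bp (quartiles 229 and 396 bp). The shortest width in the list, 190 bp, was found in 65 of the 255 sites (25.5%, 20.3 to 31.3%) and in 542 of the 6957 other peaks (7.79%, 7.17 to 8.45%). A width of 400 bp or more was found in 4 sites (1.57%) and in 1688 other peaks (24.3%).

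Within tertiles of score the difference in width was smaller in the lower 2. In the lowest tertile of scores, up to 10.42, the median width was 208 bp for 179 sites and 231 bp for 2573 other peaks. In the middle tertile, from 10.55 to 15.01, it was 223 bp for 66 sites and 282 bp for 2015 other peaks. The highest tertile spans scores from 15.26 to 225.50, but its 10 sites reached 37.13 at most, so its medians, 289 bp for the sites and 408 bp for 2369 other peaks, do not compare peaks of similar score. Spearman's rho of width and score was 0.25 over the 255 sites and 0.65 over the 6957 other peaks. The sites span a narrower range of scores, and more of them share the shortest width. The values of rho therefore do not compare like ranges, and rho at matched scores was not computed. Both values are descriptions across peaks of 1 library. A wide peak has more bases that can meet a peak of another list, so width bears on the selection too. With all peaks resized to 500 bp around their midpoints the rule gave 256 sites, of which 240 were among the 255.

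**Figure D2:**
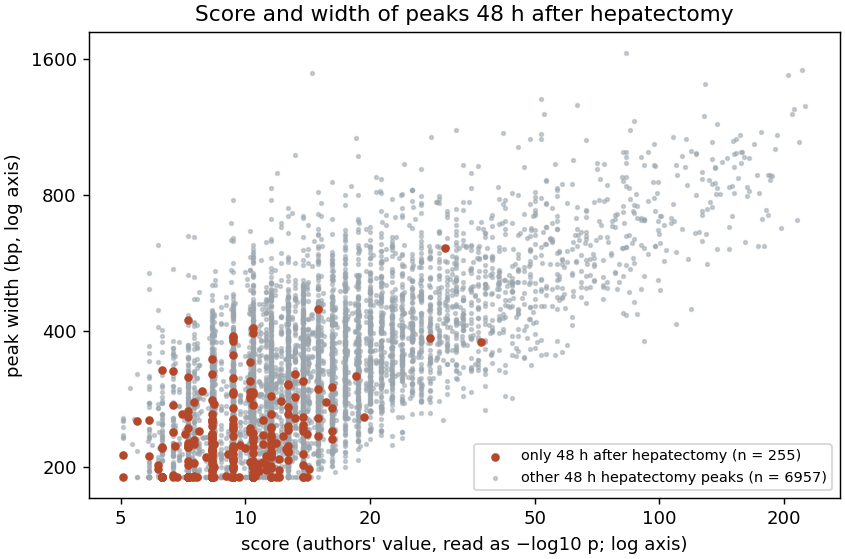
Width (vertical axis, bp, log axis) against score (horizontal axis, read as −log10 p, log axis) of every peak 48 h after hepatectomy. Each point is 1 peak, coloured for the 255 sites found in no other unsilenced list and grey for the 6957 other peaks. The sites crowd at the low end of both axes, with medians of 9.35 and 216 bp. Columns of points are scores that recur, some on the ladder, which holds 70.3% of all scores, and some off it.

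A few sites stood well above the rest. The highest score was 37.13, at rank 539 of the 7212 peaks, for a peak of 377 bp at chr8:19979891-19980267 (mm9). Another site lay 298 bp beyond it at chr8:19980566-19980822, with a score of 19.32 and a width of 257 bp. The nearest peak of any other unsilenced list was 38991 bp from this pair, and the nearest peak of a silenced list was 1218392 bp away. The closest peaks to the pair were those of the 6 h livers, and the 48 h sham and basal lists had none nearer than 1043291 bp. Other sites were more remote, and 20 sites had no peak of the other unsilenced lists within 100 kb.

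The site with the next score, 30.32, was the widest of all, with 611 bp at chr13:55431288-55431898. It lay near signal of other livers: the closest peaks were 1931 bp away 6 h after hepatectomy, 7601 bp away 48 h after sham, 7426 bp away 6 h after sham and 7832 bp away in basal liver. A peak of the silenced 6 h hepatectomy list lay 7787 bp from it. A peak at chr1:78598715-78599099 followed with a score of 27.99, and its nearest neighbour was a 6 h sham peak 14699 bp away. No other site had a score above 18.55.

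The remaining sites among the 10 highest-scoring were alike in score and differed in surroundings. That with 18.55 lay at chr3:116780407-116780723, 9971 bp from a 6 h hepatectomy peak. Next came 4 sites that shared the score 16.22. Those at chr15:36631615-36631914 and chr16:13766620-13766859 had peaks of other livers 5744 bp and 13538 bp away. Those at chr2:101953614-101953882 and chrX:96349685-96349914 were more remote, with the nearest peak of the other lists 103092 bp and 215965 bp away. The tenth site, at chr6:86136491-86136768, had a score of 15.71 and a 6 h sham peak 3511 bp away.

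Distance to the other lists shows how far each site was from being counted as shared. The nearest peak of any of the 4 other unsilenced lists was a median of 8607 bp away (quartiles 1870 and 34264 bp). It was within 500 bp for 29 sites (11.4%, 7.75 to 15.9%), within 1 kb for 42 sites (16.5%) and within 10 kb for 136 sites (53.3%, 47.0 to 59.6%). For the other 6957 peaks of the library, with overlapping peaks left out, these shares were 14.9%, 25.2% and 64.3%, and 95.9% within 100 kb. For 20 sites (7.84%, 4.86 to 11.9%) there was none within 100 kb. The nearest peak was of the 6 h hepatectomy list for 129 sites, of the 6 h sham list for 124 sites and of the 48 h sham list for 2 sites. Basal liver had the nearest peak for 0 of 255 sites, which allows a share of up to 1.44%.

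List by list, the distance followed the length of the list. The median was 12947 bp to the 6 h hepatectomy list, 12698 bp to the 6 h sham list, 75813 bp to the 48 h sham list and 183516 bp to the basal list. A 6 h hepatectomy peak lay within 500 bp of 21 sites, and a 6 h sham peak of 22 sites. The 48 h sham list and the basal list each had a peak that close to 1 site.

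**Figure D3:**
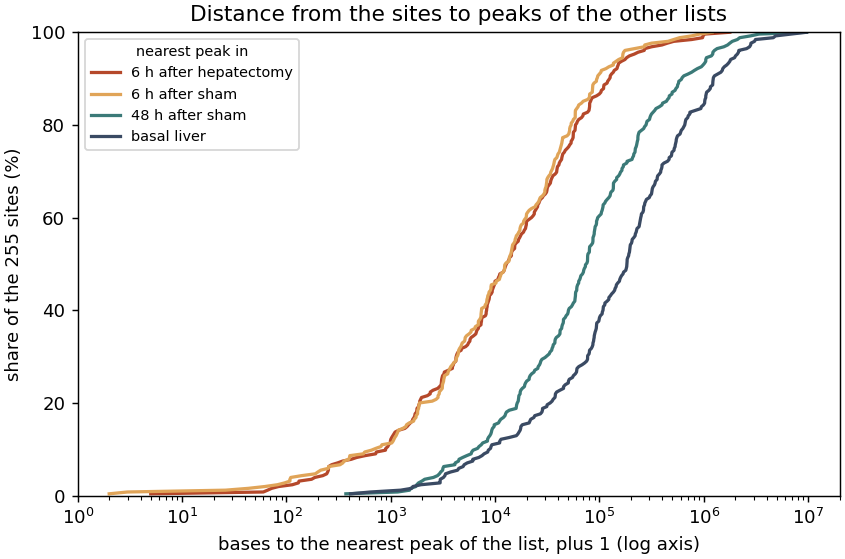
Cumulative share of the 255 sites (vertical axis, percent) by distance to the nearest peak of each other unsilenced list (horizontal axis, bases plus 1, log axis), 1 line per list. The lines of both 6 h lists run together, with medians of 12947 and 12698 bp, and the 48 h sham and basal lines lie further right.

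The sites lay in stretches with fewer peaks than other peaks of their library did. The next peak of the same library was a median of 43430 bp away for the sites and 29606 bp away for the other peaks, a measure that the rule did not use directly. In the lowest tertile of scores the medians were 38550 bp and 27976 bp, and in the middle tertile 44961.5 bp and 30023 bp. In the highest tertile the order was turned, with 23244.5 bp for 10 sites, among them the pair on chromosome 8, and 30251 bp for the other peaks. The same library had another peak within 1 kb of 6 sites (2.35%, 0.868 to 5.05%) and of 640 other peaks (9.20%, 8.53 to 9.90%). The nearest peak of the other unsilenced lists that did not overlap was a median of 8607 bp from the sites and 4739 bp from the other peaks. That distance is a graded form of the rule itself, so it only describes the sites.

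Sites close to a peak of another liver had a lower median score than remote ones. The 29 sites within 500 bp of another list had a median score of 8.30 and a highest score of 12.57. The 206 sites between 500 bp and 100 kb had a median of 9.35. The 20 sites beyond 100 kb had a median of 11.37. Across the 255 sites the rank correlation of score and distance was weak, with Spearman's rho of 0.15.

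Some sites were just inside the rule. A site at chr6:6165032-6165283 with a score of 5.47 was 1 bp away from a 6 h sham peak of score 9.82. A site at chr2:122067604-122067808 with a score of 8.30 was 2 bp from a 6 h sham peak of score 9.92. A site at chr9:44773079-44773268, score 6.31, was 4 bp from a 6 h hepatectomy peak of 621 bp and score 30.84. The next were at chr16:94670984-94671173, 25 bp from a 6 h sham peak, and at chr10:118306983-118307172, 42 bp from one. Each of these 5 sites bordered on a peak of a 6 h list.

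Others fell just outside the rule. The peak at chr19:18642911-18643100, with a score of 7.29, shared 8 bp with a 6 h sham peak of score 10.94. The peak at chr17:78801062-78801294 shared at most 14 bp with peaks of both 6 h lists. That at chr10:41945670-41945871 shared at most 28 bp with peaks of both 6 h lists, which scored 18.02 after hepatectomy and 17.36 after sham. Those at chr19:9003652-9003931 and chr14:57996458-57996678 shared 29 bp and 33 bp with a 6 h sham peak. These are the 5 peaks with the smallest overlap, and each owed it to a 6 h list.

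Silenced livers held almost no peaks at the sites. The silenced 48 h hepatectomy and basal lists, with 102 and 177 peaks, held few at any peak of this library. The silenced 48 h hepatectomy list, the counterpart of this library, had a peak at 0 of 255 sites, which allows a share of up to 1.44%, and at 0.915% of all 7212 peaks. The silenced basal list also had a peak at 0 of 255 sites (up to 1.44%), and at 1.66% of all peaks. Of the 2573 other peaks in the lowest tertile of score, the silenced 48 h list had a peak at 1 (0.0389%). The silenced basal list had a peak at 3 of them (0.117%). These counts of 0 thus do not set the sites apart from other peaks of low score. The silenced 6 h hepatectomy list had a peak at 2 of 255 sites (0.784%, 0.0951 to 2.80%), and at 42.6% of all peaks. In the lowest tertile of score, where most sites lie, it had a peak at 1 of 179 sites (0.559%, 0.0141 to 3.07%) and at 636 of 2573 other peaks (24.7%, 23.1 to 26.4%). In the middle tertile it had a peak at 1 of 66 sites (1.52%, 0.0384 to 8.16%) and at 734 of 2015 other peaks (36.4%, 34.3 to 38.6%). With any of the 3 silenced lists the count for the sites was the same 2, and the share over all peaks was 42.7%.

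The silenced lists were not used by the rule, but they overlap the lists that were. Of the 4325 silenced 6 h hepatectomy peaks, 98.2% lay on a peak of the unsilenced 6 h hepatectomy list, whose peaks the rule removes. Only 50 silenced 6 h peaks (1.16%) lay outside the 4 other unsilenced lists, and 2 of these 50 were on the sites. In the silenced 48 h list 16 of 102 peaks lay outside those 4 lists, and in the silenced basal list 15 of 177 did, with none on a site in either. How far the rule, the score and silencing itself each bear on the low count was not tested.

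Peaks shared with the 6 h sham list alone also lack a 6 h hepatectomy counterpart and give a closer comparison. Like the sites, they exclude the list that held 98.2% of silenced 6 h peaks, which limits both shares by construction. Among these 326 peaks, 5 (1.53%, 0.500 to 3.54%) had a silenced 6 h peak, beside 2 of the 255 sites (0.784%). Among the 166 peaks shared with the 6 h hepatectomy list alone it was 14 (8.43%, 4.69 to 13.7%). In peaks shared with both 6 h lists alone it was 610 of 2633 (23.2%), and in peaks of regions found in all 5 lists 1570 of 1982 (79.2%).

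**Figure D4:**
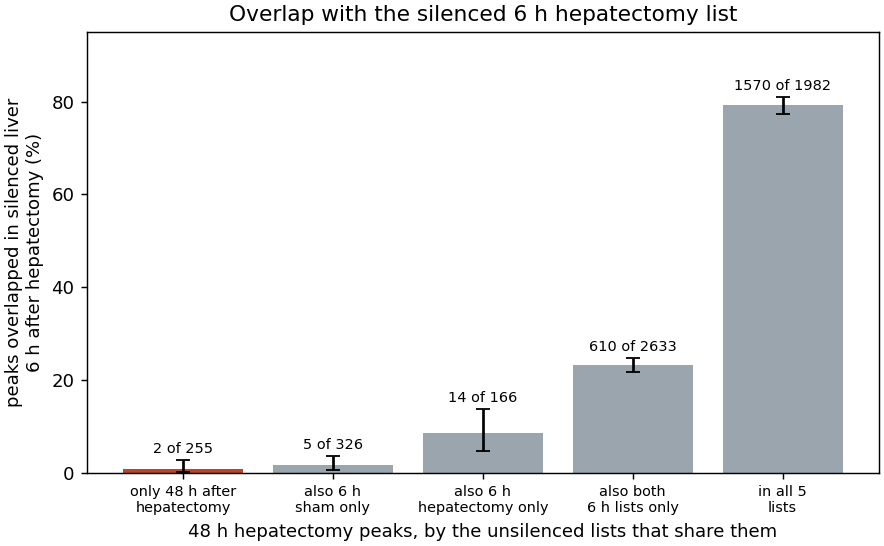
Share of peaks 48 h after hepatectomy that overlapped a peak of silenced liver 6 h after hepatectomy (vertical axis, percent), by which other unsilenced lists share the peak (horizontal axis). Bars are shares, error bars are exact 95% intervals for counting error, and 2 of 255 sites found in no other list stand beside 1570 of 1982 peaks in all 5 lists.

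Both sites with a silenced counterpart lay on chromosome 19. The site at chr19:6546205-6546415 had a score of 11.21, and a silenced 6 h peak of score 10.25 at chr19:6546185-6546432 covered all its 211 bp. The site at chr19:17085758-17085947 had a score of 9.35 and shared 157 bp with a silenced 6 h peak of score 13.11 at chr19:17085791-17086037. Both were far from the other unsilenced lists, at 144304 bp and 271652 bp. At these positions a peak was called after silencing 6 h after hepatectomy and not in the unsilenced liver of that state.

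The peaks shared with a single 6 h list were close to the sites in score and width. The median score was 9.35 for the 255 sites, 9.35 for the 326 peaks shared with the 6 h sham list alone and 10.34 for the 166 peaks shared with the 6 h hepatectomy list alone. The median widths were 216, 231 and 221.5 bp. Peaks in all 5 lists had a median score of 21.27 and a median width of 412 bp. Peaks shared with both 6 h lists alone lay between, with a median score of 10.42 and a median width of 258 bp.

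Each of the other unsilenced lists had sites of its own too, and there also they were weaker than the list. After hepatectomy at 6 h, 4835 of 22071 peaks (21.9%) were in no other unsilenced list, with a median score of 11.93 against 19 for that whole list. After sham at 6 h it was 5533 of 23087 peaks (24.0%), with a median score of 10.94 against 16.32. In basal liver it was 7 of 2482 peaks (0.282%). At 48 h the list of the hepatectomy is longer than that of the sham operation. Of the 4622 highest-scoring hepatectomy peaks, as many as the sham list has, 85 (1.84%, 1.47 to 2.27%) were in no other unsilenced list. After sham it was 27 of 4622 peaks (0.584%, 0.385 to 0.849%), set against the uncut hepatectomy list of 7212 peaks. Peak widths also differed, with a whole-list median of 290 bp after hepatectomy and 379 bp after sham. These intervals cover counting error over the peaks of 1 library each. The difference between hepatectomy and sham at 48 h was not tested, with 1 liver each.

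The sites were spread over the genome. They lay on 20 chromosomes, with between 5 and 23 sites on each of chromosomes 1 to 19 and 2 sites on chromosome X. The library had 1 peak on chromosome Y, which was not among the sites. Chromosome 4 had the most, 23 of 455 peaks (5.05%, 3.23 to 7.49%), followed by chromosome 5 with 20 of 475 peaks (4.21%) and chromosome 8 with 20 of 408 peaks (4.90%). Relative to the peaks of a chromosome the highest share was on chromosome 12, with 18 of 288 peaks (6.25%, 3.75 to 9.70%), and the lowest of chromosomes 1 to 19 on chromosome 14, with 5 of 259 peaks (1.93%, 0.630 to 4.45%). The interval of chromosome 12 lies above the share of 3.54% over all peaks, and those of the other chromosomes with a site include it. Chromosome 12 was singled out after its value was seen among 20 chromosomes.

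**Figure D5:**
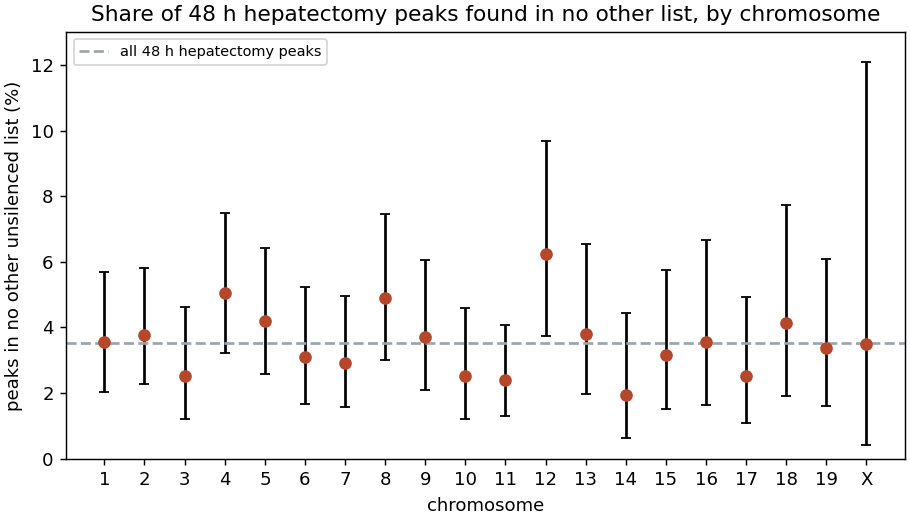
Share of peaks 48 h after hepatectomy found in no other unsilenced list (vertical axis, percent), for chromosomes 1 to 19 and X (horizontal axis). Points are shares, error bars are exact 95% intervals for counting error, and the dashed line is the share over all 7212 peaks, 3.54%, which the intervals include except on chromosome 12 (6.25%).

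Within 50 kb of each other lay 5 pairs of sites, and no larger group was found. The number of pairs among as many other peaks of the library was not computed. Any peak of the same library, site or not, lay within 50 kb of 137 sites (53.7%) and of 4292 other peaks (61.7%). Besides the pair on chromosome 8, 298 bp apart, there was a pair on chromosome 7 at chr7:152242300-152242520 and chr7:152273798-152274031, with scores of 7.29 and 12.36 and 31277 bp between them. A pair on chromosome 19 at chr19:20560516-20560772 and chr19:20604948-20605137 had scores of 13.83 and 8.30 and 44175 bp between them. None of the other 7 lists had a peak between the members of these 3 pairs.

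The other pairs enclosed peaks of 6 h livers. On chromosome 7 the sites at chr7:106321399-106321638 and chr7:106366368-106366577 had scores of 13.83 and 11.53. Between them lay 6 peaks of the 6 h hepatectomy list and 6 peaks of the 6 h sham list. On chromosome 9 the sites at chr9:9221334-9221549 and chr9:9267655-9267963 had scores of 8.30 and 10.25, and 2 peaks of the 6 h hepatectomy list and 1 peak of the 6 h sham list lay between them. The nearest 6 h peak was 1805 bp and 1969 bp from the sites of the chromosome 7 pair. From those on chromosome 9 it was 8040 bp and 28961 bp away. That none of them lay on a 6 h peak is the rule itself.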

How the data were processed

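XBP1 immunoprecipitation libraries of mouse liver were sequenced by the authors, and 8 deposited peak lists of the 9 samples were used. The input library was not used here. Bowtie2, MACS 1.4.2 and build mm9 are named in the submitters' processing notes, without settings or any input control, which the sources used here do not give. Each library had its own list. The score deposited by the authors was read as a −log10 p-value, not as the 10 times −log10 p that MACS 1.4 usually writes, because the lowest score of 7 lists lay just above 5, and the scores follow Poisson steps on that scale. Steps were fitted over background means from 0.3 to 20. Read numbers were not given, so depth and the precision it allows are unknown.

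Groups came from the sample titles. A peak 48 h after hepatectomy was a site if no peak of the other 4 unsilenced lists shared 1 bp with it, which gave the same peaks as merging the lists. Distances are bases between peak edges. Coordinates are 1-based. Shares carry Clopper-Pearson 95% intervals, and a count of 0 is given with the upper limit of its interval. The 10 highest-scoring sites, the 5 nearest to either side of the rule, sites with a silenced peak and pairs within 50 kb are named. The rule, members and comparisons were chosen with earlier results of these data known. The planned counts of base composition, motifs, gene positions, gene lists and marker genes needed an mm9 genome and were not run. Python 3.11.15, NumPy 2.4.6, pandas 2.3.3, SciPy 1.17.1 and matplotlib 3.10.9 were used. On simulated lists with 1700 of 2000 peaks shared, overlap counts were checked with bedtools 2.31.1.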

Additional observations from a re-analysis of the deposited data

How the results depend on the processing

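Of 14 alternatives, 6 kept the number of sites within 1.5 times 255. One of these, lists cut to their 2000 highest-scoring peaks, gave 346 sites of which only 5 were among the 255. The number moved to 119 with peaks within 10 kb counted as shared, 1618 where overlap of both peaks by 50% was required, 114 with a score of at least 10 in the 48 h hepatectomy list, 155 with that score in all lists, 431 without the 6 h hepatectomy list and 593 without the 6 h sham list. Chosen after seeing the data were leaving out both 6 h lists, with 3505 sites, and taking only as many 48 h hepatectomy peaks as the 48 h sham list has, with 85. Fewer lists or peaks change the count by construction. The median score stayed between 9.35 and 10.25, the interval of the median, in 9 alternatives. It was 11.53 under either requirement of a score of at least 10, 12.08 with 85 sites, 10.42 without both 6 h lists and 19.98 with the 2000 highest-scoring. The share with a silenced peak was 22.2% with the 50% overlap, 3.12% with resized peaks, 30.1% between the 2000 highest-scoring, 3.94% without the 6 h hepatectomy list and 18.8% without both 6 h lists. It stayed within 0.0951 to 2.80% otherwise. The median width, 216 bp, became 226 bp with a score of at least 10 in the 48 h list, 231 bp with it in all lists, 342 bp between the 2000 highest-scoring, 224 bp without the 6 h sham list, 249 bp without both 6 h lists and 226 bp with 85 sites. The median distance to the 4 lists became 36604 bp with the 10 kb rule, 4426 bp with a score of at least 10 in all lists, 989 bp without the 6 h hepatectomy list, and 0 bp with the 50% overlap, between the 2000 highest-scoring, without the 6 h sham list and without both 6 h lists. The cause was not tested beyond this construction. No paired analysis was possible because there is 1 library per condition. Unknown depth limits every statement on absence.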

Other observations

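Of the 261 regions with a peak 48 h after hepatectomy and in neither 6 h list, 6 were shared with another unsilenced liver, and these were singled out after their values were seen. The only region found in both 48 h livers and in no other unsilenced list lay on chromosome 16. Its peaks were chr16:24091171-24091446 with a score of 9.35 after hepatectomy and chr16:24091117-24091483 with a score of 18.11 after sham. The other 5 regions were shared with basal liver. The strongest of them lay on chromosome 15, at chr15:74837449-74837811 with a score of 18.71 48 h after hepatectomy and chr15:74837442-74837734 with a score of 16.88 in basal liver. The others were at chr11:20456620-20456884, with a score of 13.16 48 h after hepatectomy, chr9:74888415-74888618, with 11.29, chr1:74282750-74283013, with 8.30, and chr10:80287007-80287222, with 6.68. At these 5 positions a peak was called in basal liver and in liver 48 h after hepatectomy, and in neither 6 h list.

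Absence from both 6 h lists was also seen in the sham course. It held for 88 of the 4622 highest-scoring peaks 48 h after hepatectomy (1.90%, 95% Clopper-Pearson interval 1.53 to 2.34%) and for 28 of the 4622 peaks 48 h after sham (0.606%, 0.403 to 0.874%). The difference was not tested, with 1 liver each and a larger median peak width in the sham list.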
